A study of Mus musculus with 9 samples.

Results

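The receptors and adaptors of the TREM family (triggering receptors expressed on myeloid cells) were examined in FDCPmix, a mouse multipotent hematopoietic progenitor line, after shRNA against Gata2 or Pu.1. The set comprised 6 genes, the receptors Trem1, Trem2, Trem3 and Treml2 and the signaling adaptors Tyrobp and Hcst. A gene was taken to be measured when the accession of a probe on the array belonged to it. This gave 7 probes for 5 of the 6 genes, of 16535 genes with a matched probe and 15808 genes tested. Treml2 had no matched probe and is not analysed here. Each of the 7 probes was bright enough to be tested, and each read well above background on all 9 arrays, so every measured member has a value in every sample.

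All samples came from the same line, kept under self-renewing culture before lentivirus was added. The 3 groups, with 3 arrays each, received empty virus (EV), Lentilox virus with shRNA against Gata2 (Gata2 KD) or Lentilox virus with shRNA against Pu.1 (Pu.1 KD). Viable GFP-positive cells, which mark transduction, were sorted 5 days later, and 150 ng of total RNA per sample was labeled for single-color Agilent arrays. The study's text speaks of the Gata2 shRNA in the singular, and the number of hairpins against Pu.1 was not found in the sources used here, so an effect of a hairpin cannot be told apart from one of its target. EV carried no hairpin. The comparisons ask how each knockdown altered these genes, and the knockdowns are also compared with each other, where the EV samples enter only through the shared estimate of the spread.

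TREM1, TREM2 and TREM3 are immunoglobulin-like proteins with short cytoplasmic tails that carry no signaling motif of their own. They pair in the membrane with TYROBP (also called DAP12), whose immunoreceptor tyrosine-based activation motif (ITAM) is phosphorylated by Src family kinases and then recruits the kinase SYK. HCST (DAP10) is a related small adaptor that recruits phosphatidylinositol 3-kinase and GRB2. TREM1 is known for amplifying inflammatory responses of neutrophils and monocytes, and TREM2 for lipid sensing in macrophages, microglia and osteoclasts.

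Values are log2 processed intensities minus the 75th percentile of the array, called levels here, and a difference of 1 is a 2-fold difference. A gene was called changed at an adjusted p under 0.05 in limma, with Benjamini-Hochberg adjustment over all 36585 probes tested. Levels are compared for 1 probe across samples and not between probes. On the arrays 80.4% to 89.6% of spots read well above background, and no spot was saturated. EV replicate 3 had the lowest mean correlation with the other arrays (0.960, against 0.971 or more for the rest). In Gata2 KD the Gata2 level was 3.14 ± 0.37 (SD, n = 3) against 4.78 ± 0.27 in EV, and in Pu.1 KD the level of Spi1, which encodes PU.1, was -3.62 ± 0.07 against -1.89 ± 0.20. Spi1 was also higher in Gata2 KD than in EV, at -0.52 ± 0.16. The 5 progenitor markers tested (Kit, Cd34, Gata2, Ptprc and Spi1) read well above background on all arrays of every group. Each slide held 1 array of each group. Triplicate samples were transduced per group, and whether they came from separate cultures is not stated, so p-values measure the spread between these samples.

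Trem1, Trem3 and Trem2 lie in this order on mouse chromosome 17 in the RefSeq gene table of assembly GRCm38.p6, with Treml4, Treml2 and B430306N03Rik between Trem3 and Trem2. Tyrobp and Hcst are direct neighbors on chromosome 7. RefSeq promoter windows, from 250 bases before to 50 bases after the gene's start, were at hand for 3 of the 6 members, and bases upstream of the start are shown because Trem1 and Trem2 differed between groups while Hcst did not pass the test. Each is written 5′ to 3′ on the strand of the gene and begins 250 bases before the start. For Trem2 and Hcst all 250 bases are given, and for Trem1 the first 224, since the RefSeq gene table begins Trem1 after them. The coordinates are GRCm38.p6, chr17:48232489-48232712 (plus strand) for Trem1, chr17:48346151-48346400 (plus strand) for Trem2 and chr7:30419855-30420104 (minus strand) for Hcst. Capitals mark matches on either strand to the letters searched. For GATA factors the letters were AGATAA, its variant AGATAG, and likewise TGATAA with its variant TGATAG. For PU.1 and other ETS factors they were GGAAGTG or, as a shorter form, GAGGAA, and for C/EBP factors they were TTGCNNAA. No 2 of these matches overlapped in the windows shown.
Trem1: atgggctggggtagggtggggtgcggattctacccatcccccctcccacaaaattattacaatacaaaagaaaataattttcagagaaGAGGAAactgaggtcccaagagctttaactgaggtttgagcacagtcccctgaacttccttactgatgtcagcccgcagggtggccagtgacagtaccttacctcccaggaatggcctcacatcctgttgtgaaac
Trem2: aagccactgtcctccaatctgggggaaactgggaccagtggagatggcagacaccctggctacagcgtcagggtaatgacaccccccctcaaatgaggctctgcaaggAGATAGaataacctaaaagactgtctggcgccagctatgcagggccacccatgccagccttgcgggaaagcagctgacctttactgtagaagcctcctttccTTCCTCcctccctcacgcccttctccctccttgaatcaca
Hcst: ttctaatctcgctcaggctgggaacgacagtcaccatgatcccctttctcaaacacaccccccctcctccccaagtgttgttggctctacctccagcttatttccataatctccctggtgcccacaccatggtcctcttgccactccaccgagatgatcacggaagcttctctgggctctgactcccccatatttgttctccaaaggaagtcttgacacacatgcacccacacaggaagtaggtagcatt
The Trem1 window held 1 match, GAGGAA at positions -162 to -157 from the start. The Trem2 window held AGATAG at -142 to -137 and GAGGAA on the opposite strand at -40 to -35, and a match to TTGCNNAA at 22 to 29, past the printed bases. The Hcst window held none of these letters. The shorter ETS letters GGAAG, which the study also names, were not searched and occur on either strand in each sequence shown. Over 32851 RefSeq promoter windows of the same length, 8.95% held AGATAG, 28.3% held GAGGAA and 10.8% held TTGCNNAA. Any of the letters searched for GATA factors occurred in 29.8% of these windows, and any of those for PU.1 and other ETS factors in 35.1%. These matches describe letters and are not evidence of binding.

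In Gata2 KD all 3 measured TREM receptors and Tyrobp rose, and Hcst did not pass the test. Of the 5 member genes tested 4 were called higher and 0 lower, also at an unadjusted p under 0.05 in limma, while 4.05% of all 15808 tested genes were called higher and 3.07% lower. The median change of the 5 genes was 1.93 on the log2 scale, against -0.11 for all tested genes. In Pu.1 KD Tyrobp, Trem3 and Trem1 fell, and Trem2 and Hcst had no detected change. Here 3 of 5 were called lower and 0 higher, also at an unadjusted p under 0.05, against 2.12% of all tested genes lower and 1.41% higher. The median change of the 5 was -1.28, against -0.05 for all genes. Both the count and this median take the first Trem1 probe. The second Trem1 probe was not called in Pu.1 KD (-0.78, adjusted p = 0.0675 in limma).

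**Figure D1:**
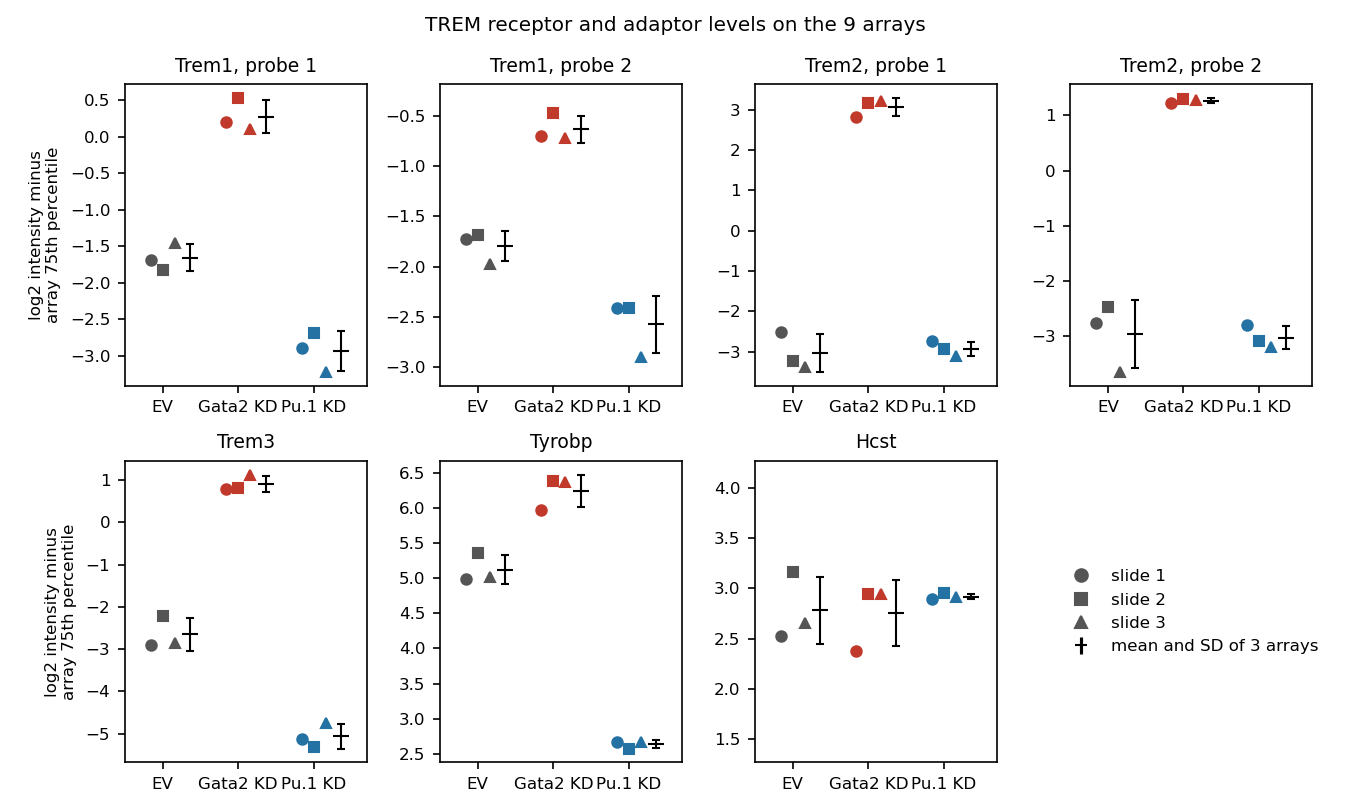
Levels of the 7 probes for TREM receptors and adaptors on the 9 arrays. The vertical axis is log2 processed intensity minus the 75th percentile of the array, with its own range in each panel, points are single arrays, their shapes give the slide, and bars give the mean and SD of 3 arrays. Gata2 KD lies above EV for every probe except Hcst, and Pu.1 KD lies below EV for Trem1, Trem3 and Tyrobp and within or close to EV for Trem2 and Hcst.

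Trem2 showed the largest change of the receptors. On its brighter probe (A_51_P269546), the levels were -2.51, -3.39 and -3.22 in EV replicates 1 to 3, 3.22, 3.16 and 2.82 in Gata2 KD, and -2.94, -3.10 and -2.74 in Pu.1 KD. All Gata2 KD arrays lay far above the other 6, and the Pu.1 KD arrays lay within the span of the EV arrays. The processed intensity was 48.2 to 105 in EV and 3950 to 4331 in Gata2 KD. The change in Gata2 KD was 6.10 ± 0.24 (SE), or 68.8-fold, with an adjusted p of 7.96e-06, and it ranked 5th among the rises of 36585 probes. The 3 within-slide differences were 5.33, 6.39 and 6.60. In EV this probe read only 2.86 to 5.02 times its local background, and with normexp correction of the median signal (offset 50), which changes the signal used, the background step and the offset together, the rise was 5.05.

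A second Trem2 probe (A_51_P269549) was also highest in Gata2 KD. Its levels were -2.75, -3.65 and -2.47 in EV, 1.28, 1.30 and 1.22 in Gata2 KD, and -3.08, -3.19 and -2.80 in Pu.1 KD. Again the Gata2 KD arrays stood clear of the rest, and EV replicate 2 was the lowest EV array on both probes. The change in Gata2 KD was 4.22 ± 0.28, or 18.7-fold (adjusted p = 7.58e-05), and 3.77 to 4.93 within slides. The probes differed in the size of the rise. Within an array, the first probe minus the second was between -0.75 and 0.26 in EV and between 1.60 and 1.93 in Gata2 KD, a difference that was not tested.

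For Trem2, Pu.1 KD and EV did not differ beyond their spread. The change in Pu.1 KD was 0.11 (95% interval -0.45 to 0.67, adjusted p = 0.994) on the first probe and -0.06 (-0.71 to 0.58, adjusted p = 1) on the other. The within-slide differences ran from -0.23 to 0.29 and from -0.61 to 0.46. Intensities over both probes were 55.7 to 73.8 in Pu.1 KD. The probes were dim in both groups, at 3.5 to 5.5 times the local background in Pu.1 KD and 2.8 to 6.2 times in EV. Whether a lower reading was open to these probes was not tested. A fall of up to 0.45 on the first probe, or 0.71 on the other, lies within these intervals.

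Trem3, a receptor close to Trem1 in sequence and next to it in the genome, moved in opposite directions in the 2 knockdowns. Its levels were -2.90, -2.85 and -2.21 in EV, 1.13, 0.82 and 0.79 in Gata2 KD, and -5.32, -4.74 and -5.12 in Pu.1 KD. The 3 groups did not overlap, with Gata2 KD highest and Pu.1 KD lowest. The rise in Gata2 KD was 3.56 ± 0.24, or 11.8-fold (adjusted p = 7.11e-05), and 3.03 to 3.98 within slides. The level in Pu.1 KD fell by 2.41 ± 0.24, which is 5.32-fold lower (adjusted p = 0.00248) and the 31st largest fall of 36585 probes. In Pu.1 KD the probe was dim, at intensities of 11.9 to 19.0 and 1.93 to 2.12 times the local background, and with normexp correction the fall was -0.97 (adjusted p = 0.00692). Within slides the difference in Pu.1 KD lay between -3.11 and -1.90. Whether the probes for Trem1 and Trem3 each detect only their own transcript was not tested.

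Trem1 followed the same order, with smaller changes. On its first probe (A_52_P415116) the levels were -1.69, -1.46 and -1.82 in EV, 0.10, 0.53 and 0.20 in Gata2 KD, and -2.69, -3.23 and -2.90 in Pu.1 KD. No group overlapped another. The change was 1.93 ± 0.19, or 3.82-fold, in Gata2 KD (adjusted p = 0.000657) and -1.28 ± 0.19, or 2.43-fold lower, in Pu.1 KD (adjusted p = 0.014). The within-slide differences were 1.56 to 2.35 in Gata2 KD and -1.77 to -0.86 in Pu.1 KD. The fall in Pu.1 KD was -0.81 with normexp correction, still called, and its call was lost without EV replicate 1 or 2 (adjusted p = 0.0507 and 0.0553) and without Pu.1 KD replicate 2 or 3 (0.0551 and 0.0614). The count of members called lower is then 2 of 5.

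The second Trem1 probe (A_51_P398491) gave -1.73, -1.97 and -1.69 in EV, -0.72, -0.48 and -0.70 in Gata2 KD, and -2.41, -2.90 and -2.41 in Pu.1 KD. The groups were again apart and in the same order. The rise in Gata2 KD was 1.16 ± 0.18 (adjusted p = 0.00662), and 1.03 to 1.25 within slides. The difference in Pu.1 KD, -0.78 ± 0.18, missed the threshold (adjusted p = 0.0675) and passed it with the slide as a block (0.0185). All 3 slides gave a negative difference, from -0.93 to -0.68. As for Trem2, the probes differed in size. Within an array, the first probe minus the second was 0.82 to 1.00 in Gata2 KD, -0.14 to 0.51 in EV and -0.49 to -0.28 in Pu.1 KD.

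Tyrobp, the adaptor shared by these receptors, had its larger change in Pu.1 KD. Its levels were 4.99, 5.01 and 5.36 in EV, 6.36, 6.39 and 5.98 in Gata2 KD, and 2.57, 2.67 and 2.67 in Pu.1 KD. The groups did not overlap, and the Pu.1 KD arrays lay close together. The rise in Gata2 KD was 1.12 ± 0.17, or 2.18-fold (adjusted p = 0.00593). In Pu.1 KD the level fell by 2.48 ± 0.17, which is 5.59-fold lower (adjusted p = 0.000839) and the 25th largest fall of all probes. The intensity was 16239 to 20335 in EV and 2823 to 3236 in Pu.1 KD, at least 125 times the local background, and the fall was -2.48 with normexp correction as well. Within slides the differences were 0.99 to 1.35 in Gata2 KD and -2.79 to -2.32 in Pu.1 KD. The intervals of the Pu.1 KD change did not overlap between Tyrobp (-2.87 to -2.10) and Trem2 (-0.45 to 0.67), although the difference between the genes was not itself tested.

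Hcst, the other adaptor and the genomic neighbor of Tyrobp, showed no detected change. Its levels were 2.53, 2.66 and 3.16 in EV, 2.94, 2.94 and 2.37 in Gata2 KD, and 2.95, 2.91 and 2.90 in Pu.1 KD. The 3 groups overlapped, and the lowest and highest arrays were Gata2 KD replicate 3 and EV replicate 3. The change was -0.03 (95% interval -0.53 to 0.47, adjusted p = 0.986) in Gata2 KD and 0.14 (-0.36 to 0.64, adjusted p = 0.97) in Pu.1 KD. These intervals exclude changes of the size seen for Tyrobp in either comparison. Within slides the differences changed sign, from -0.22 to 0.28 in Gata2 KD and from -0.21 to 0.37 in Pu.1 KD. The probe was bright, at intensities of 2901 to 4433.

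**Figure D2:**
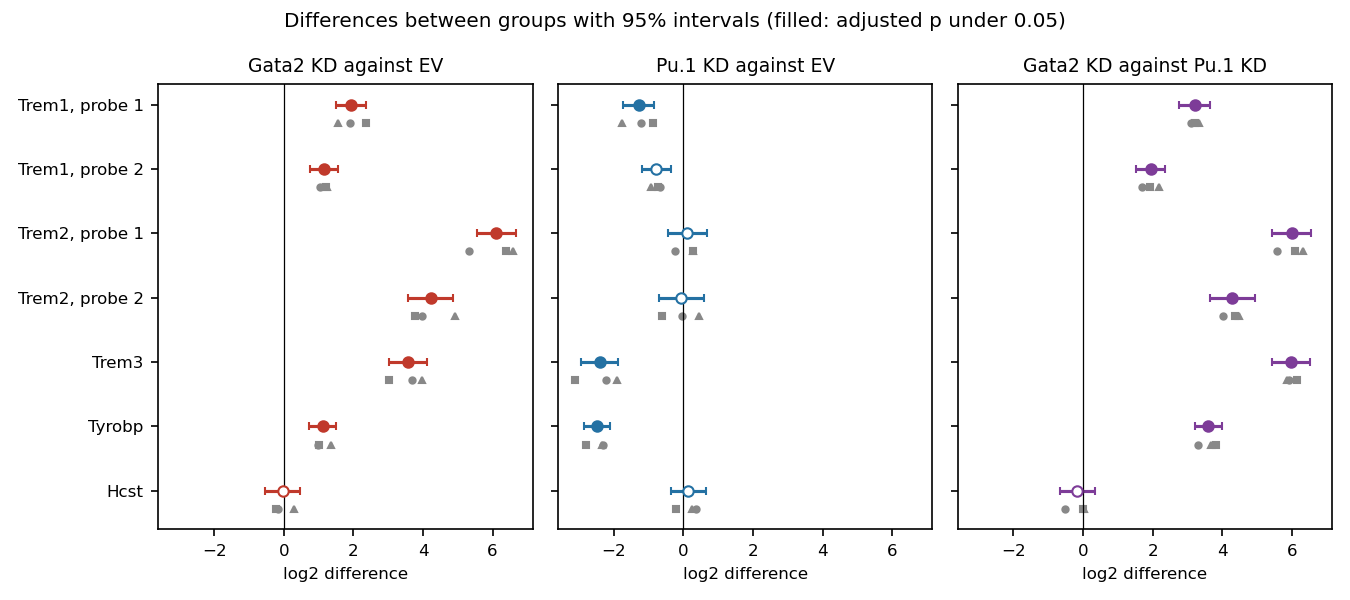
Differences between groups for the 7 probes. The horizontal axis is the log2 difference, circles with bars give the fitted difference and its 95% interval, filled where the adjusted p was under 0.05, and small grey marks give the difference within slide 1 (circle), slide 2 (square) and slide 3 (triangle). Trem2 rises in Gata2 KD and stays around 0 in Pu.1 KD, Tyrobp and Trem3 fall in Pu.1 KD, and Hcst stays around 0 in every comparison.

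When the knockdowns were compared directly, 4 of 5 members were higher in Gata2 KD and 0 were lower, also at an unadjusted p under 0.05, against 6.55% and 5.82% of all tested genes. The difference was 5.99 (63.7-fold, adjusted p = 3.79e-06) for Trem2 and 5.97 (62.9-fold, adjusted p = 3.03e-06) for Trem3. It was 3.60 (12.2-fold, adjusted p = 5.83e-06) for Tyrobp and 3.21 (9.26-fold, adjusted p = 2.16e-05) for Trem1. On the second Trem2 probe it was 4.29 (19.6-fold), and on the second Trem1 probe 1.94. For Trem2 the difference lay between Gata2 KD and EV, and for Trem3 both knockdowns lay away from EV. With normexp correction the difference was 5.02 and 3.42 on the Trem2 probes and 3.88 for Trem3. For Hcst the difference was -0.17 (95% interval -0.67 to 0.33, adjusted p = 0.944).

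Markers of several cell types differed between the groups along with these genes. In Gata2 KD 9 of 9 neutrophil markers and 4 of 5 tested monocyte and macrophage markers rose, and in Pu.1 KD 8 of 9 and 1 of 5 fell. The summed level of the neutrophil markers, on the linear scale relative to the 75th percentile, was 114 to 130 in EV, 863 to 997 in Gata2 KD and 19.9 to 26.4 in Pu.1 KD. That of the monocyte and macrophage markers was 3.07 to 3.25, 18.8 to 23.1 and 1.89 to 2.15 in the same order, and Mrc1, a mannose receptor of macrophages, was not well above background in EV or Pu.1 KD. Of 5 erythroid markers 3 fell in Gata2 KD and 2 rose in Pu.1 KD. Of 4 megakaryocyte markers 1 was called higher in Gata2 KD (Ppbp, 1.63) and 1 in Pu.1 KD (Pf4, 1.61). Their summed level was 54.7 to 72.3 in EV, 55.8 to 85.8 in Gata2 KD and 139 to 163 in Pu.1 KD. Pf4 had the highest level of the 4 in each group and weighs most in this sum. Of the 5 progenitor markers, which include Gata2 and Spi1, 3 rose and 1 fell in Gata2 KD, and 1 rose and 2 fell in Pu.1 KD. The part of these cells in the TREM results was not tested, and in bulk RNA a changed number of expressing cells cannot be told apart from a changed amount of RNA per cell. Tyrobp and Hcst are also used by natural killer cells. Of 3 tested NK and T cell markers (Klrb1c, Eomes and Cd3e) 0 were called in either direction in limma. At an unadjusted p under 0.05, 1 (lower) passed in Gata2 KD and 2 (1 each way) in Pu.1 KD. Their summed level stayed between 1.13 and 1.98 on all arrays. Most of this sum came from Cd3e, a T cell marker (mean levels of 0.10 to 0.16), and Ncr1 and Gzma of the same list were not tested.

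The wider pathway was described with 8 lists of 102 genes, of which 89 were tested. In Gata2 KD 20 were called higher and 5 lower (9 lower with the slide as a block), against 4.05% and 3.07% of all tested genes. The median change was 0.10, against -0.11 for all tested genes. The rises numbered 12 without Gata2 KD replicate 2 and 14 to 22 when any other single array was left out. In Pu.1 KD 3 were called higher and 11 lower, against 1.41% and 2.12% of all tested genes. The median was -0.07, against -0.05 for all tested genes. These shares of all tested genes also apply to the marker counts above and the counts per list below. The count of rises in Pu.1 KD was 5 with the slide as a block and 0 to 4 when any 1 array was left out, and the count of falls was then 5 to 11. The genes named are from those called with the largest changes, at most 6 per list.

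Other receptors showed changes in both directions. Treml4, a TREM-like receptor encoded between Trem3 and Treml2, rose by 2.38 ± 0.19 in Gata2 KD (adjusted p = 0.000188) and differed by -0.80 in Pu.1 KD without passing the test (adjusted p = 0.0738). Among 10 tested partners of TYROBP or HCST, 3 rose and 1 fell in Gata2 KD, and 2 fell in Pu.1 KD. Clec5a, a C-type lectin of myeloid cells that pairs with TYROBP, rose by 4.40 ± 0.17 in Gata2 KD and its level in Pu.1 KD changed by -1.97 ± 0.17 (adjusted p = 0.00166). The activating paired receptors Pilrb1 and Pilrb2, which are close copies of each other, rose by 2.32 and 1.34 in Gata2 KD. Cd200r3, an activating receptor of mast cells and basophils, went the other way from Clec5a in Gata2 KD, at -2.03 ± 0.13, and was also lower in Pu.1 KD, at -0.77 (adjusted p = 0.0197). In Gata2 KD 5 of 7 mast cell and basophil markers fell.

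Most other ITAM adaptors were not called. In Gata2 KD 0 of 7 were called in limma, also at an unadjusted p under 0.05. In Pu.1 KD Cd79b, a signaling chain of the B cell receptor, fell by 1.66 ± 0.18 (adjusted p = 0.00375) and no other passed. Fcer1g, the common gamma chain of Fc receptors, was chosen after its values were seen, as the ITAM adaptor that myeloid cells use beside TYROBP. Its level was 4.92 ± 0.13 in EV, 4.95 ± 0.14 in Gata2 KD and 4.84 ± 0.15 in Pu.1 KD, with adjusted p of 0.975 and 0.99.

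Downstream of the adaptors, 6 of 26 tested kinases and adaptors rose and 3 fell in Gata2 KD, and 2 fell in Pu.1 KD. Fgr, a Src family kinase that phosphorylates ITAMs in myeloid cells, rose by 2.42 ± 0.25 in Gata2 KD (adjusted p = 0.000758). Lyn, of the same kinase family, changed by -1.18 ± 0.21 in Pu.1 KD (adjusted p = 0.0281). Syk, the kinase that docks on the phosphorylated ITAM, rose by 1.31 ± 0.22 in Gata2 KD (adjusted p = 0.0108) and was at -0.56 in Pu.1 KD without passing the test. Lat, a membrane scaffold of T cells and mast cells, fell by 1.97 ± 0.17 in Gata2 KD, and Sos1, a Ras exchange factor, fell by 1.05 ± 0.14.

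Genes that restrain ITAM signaling were also among those called. Of 10 tested, 4 rose in Gata2 KD, and in Pu.1 KD 2 fell and 1 rose. Sirpa, an inhibitory receptor for CD47, rose by 4.82 ± 0.15 in Gata2 KD (adjusted p = 3.67e-06). Pirb, an inhibitory receptor for MHC class I, rose by 1.46 ± 0.21 in Gata2 KD and changed by -2.65 ± 0.21 in Pu.1 KD (adjusted p = 0.00132). Ptpn6, which encodes the phosphatase SHP-1, rose by 0.85 ± 0.18 in Gata2 KD, and the docking protein gene Dok3 fell by 1.04 ± 0.15 in Pu.1 KD. Dok1 was higher in both knockdowns, by 0.84 and 0.73.

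**Figure D3:**
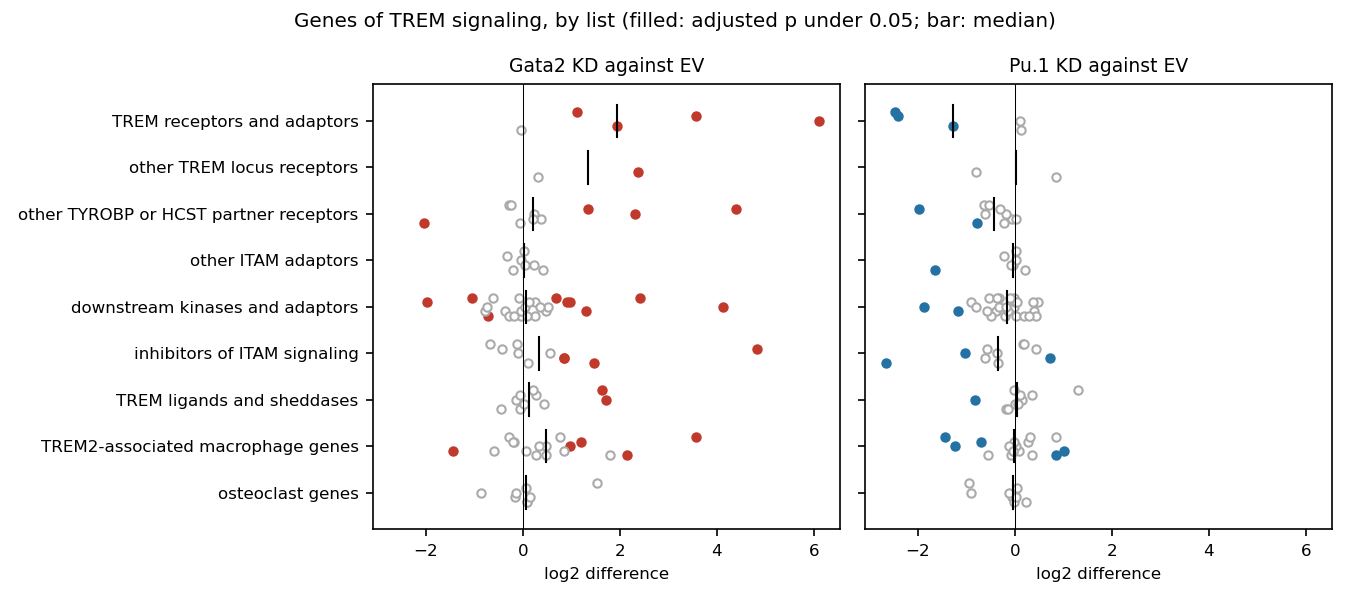
Changes against EV for the tested members and the 8 lists of pathway genes. Each point is 1 gene on the log2 scale, filled where the adjusted p was under 0.05, black bars give the median of a list, and vertical offsets only separate points. Trem2, Sirpa and Clec5a have the 3 largest rises in Gata2 KD, and most called genes in Pu.1 KD lie below 0.

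Of 10 tested genes for TREM ligands and sheddases, 2 rose in Gata2 KD and 1 fell in Pu.1 KD. Pglyrp1, a granule protein that can act as a TREM1 ligand, rose by 1.71 ± 0.16 in Gata2 KD and changed by -0.82 ± 0.16 in Pu.1 KD (adjusted p = 0.0387). Clu, an apolipoprotein that binds TREM2, rose by 1.62 ± 0.29 in Gata2 KD (adjusted p = 0.0142) and was at 1.31 in Pu.1 KD with an adjusted p of 0.0599.

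Among 17 tested genes associated with TREM2 in macrophages and microglia, 4 rose and 1 fell in Gata2 KD, and 2 rose and 3 fell in Pu.1 KD. Lpl, lipoprotein lipase, rose by 3.56 ± 0.18 in Gata2 KD, Csf1, the macrophage growth factor, by 2.16 ± 0.12, and Lipa, lysosomal acid lipase, by 1.20 ± 0.13. Cst7, a cysteine protease inhibitor, fell by 1.44 ± 0.17 in Gata2 KD, opposite to Trem2. In Pu.1 KD, where Trem2 had no detected change, the lysosomal protease Ctsl changed by -1.44 and the chemokine Ccl6 by -1.23, while Csf1 rose by 0.85. In a list of osteoclast genes, a cell type in which TREM2 and TYROBP are known to act, 0 of 8 were called in either knockdown against EV in limma, with 1 (higher) at an unadjusted p under 0.05 in Gata2 KD and 0 in Pu.1 KD.

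The genes most like each member across the 9 arrays were ranked by Pearson's r of their levels. The ranking ran over 3050 genes that varied across arrays, without genes that have only a provisional name. These values describe arrays that share 3 groups and carry no p. Trem2 was most like Csf1r, the receptor for CSF1 (r = 0.998), then Dpep2, H2-DMa, Clec4n and Rassf4, and its second probe was most like Maf (r = 0.999), P2ry6, Cfb, Ctss and Clec4n. Clec4n, a C-type lectin, was listed for both. Among the genes most like Trem3 were P2ry2, Rasgrp4, Plac8 and S100a9 (r = 0.998 to 0.996). Tyrobp was most like Cfp (r = 0.999), Stab1, Pirb, Lst1 and Fcgr2b. The first Trem1 probe was most like Plppr3 (r = 0.991), Pik3r5, Irf5, Ckap4 and Myo1f, and the second was most like Angptl4 (r = 0.992), Itgam, Cracr2b, Unc93b1 and Cyp4f18, with no overlap between them. For Hcst the highest value was 0.786, with Fap, followed by Plpp3, Zbtb38, Emx2 and Asb10.

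Among the members themselves, r over the 9 arrays was 0.985 between the Trem1 probes and 0.991 between the Trem2 probes. Tyrobp stood at 0.945 with Trem3, 0.929 with the first Trem1 probe and 0.723 with Trem2 on its first probe. That Trem2 probe stood at 0.899 with Trem3 and 0.900 with the first Trem1 probe. With Spi1, r was 0.974 for Tyrobp, 0.967 for Trem3 and 0.818 for Trem2, and with Gata2 it was -0.634, -0.816 and -0.958 in the same order. For the first Trem1 probe it was 0.974 with Spi1 and -0.851 with Gata2. Hcst lay between -0.36 and 0.28 with every other probe, those of Spi1 and Gata2 included. All these values rest on the same 3 groups of arrays, 2 of which were defined by the knockdown of Gata2 or Spi1.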

How the data were processed

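Total RNA of 9 samples was hybridized to single-color Agilent 4x44K arrays. The authors deposited scanner intensity values per spot (Agilent Feature Extraction 10.1.1.1, background-subtracted processed signal, with no scaling from array to array). A table of log2 values from the authors was deposited too, which followed the median signal without background subtraction (r of 0.997 or more) and whose further processing is not given in the sources used here. It served as an alternative only. Groups and replicate numbers came from the sample titles.

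Levels were log2 processed intensity minus the array's 75th percentile. Control spots were dropped, outlier-flagged spots were set to missing, and spots of a probe were averaged. A probe was tested when well above background on at least 3 of 9 arrays with 2 values per group, which kept 36585 of 41174. Probe accessions were matched to RefSeq genes of GRCm38.p6 (23374 probes), and no array coordinates were used since the array design is of an older build. The probe with the highest mean level over all 9 arrays stood for a gene in counts, so the choice of probe used the groups that were compared. For Trem1 the probe chosen was the higher in Gata2 KD (0.28 against -0.63) and the lower in Pu.1 KD (-2.94 against -2.57). Dim probes are less certain than bright ones, and the number of arrays limits the precision.

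Group means over all 9 arrays were fitted with limma 3.58.1 in R 4.3.3 (lmFit, eBayes, two-sided, Benjamini-Hochberg over all tested probes), and the code was tested on simulated data. Intervals are 95% intervals of that fit. The members and gene lists were chosen with earlier results of these data known. Genes were named by rule, which took every member, Gata2 and Spi1, and up to 6 called genes with the largest change against EV per list. It also took the 5 genes most correlated with each member probe. That ranking covered genes well above background on all arrays of a group, with an SD of at least 0.5 and no missing value. Genes with only a provisional name (Gm numbers, Rik, LOC or accession-like names) were left out of it. Replicate numbers did not pair the samples (correlations of same-numbered deviations from -0.55 to 0.65). For samples on the same slide they were -0.04 to 0.72, and the slide was left out of the fit and tried as a block. Alternatives were the replicate number or the slide as a block, normexp correction (offset 50, on the median signal), quantile normalization, scaling to the median, other filters, retained outlier spots, a trended and robust eBayes step, the log2 table, a fit of only the groups compared, and each array left out. SAM, which the study's methods also name, was not run, and protein sequences were not used here. Some genes that the naming rule picks are not reported here.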

Additional observations from a re-analysis of the deposited data

How the results depend on the processing

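The 7 member probes in 3 comparisons were recomputed under 20 alternatives, 420 values in all, of which 399 kept their direction and their side of the threshold, 6 lost a call, 5 gained one and 10 changed sign. The counts of members called higher were the same under every alternative, 4 in Gata2 KD, 0 in Pu.1 KD and 4 in the direct comparison. All 6 lost calls were those of the first Trem1 probe in Pu.1 KD. Its adjusted p was 0.0692 with the replicate block and 0.0639 with only the 2 groups compared, and the other 4 came from leaving out an array. The 5 gained calls were those of the second Trem1 probe in Pu.1 KD, with adjusted p of 0.0185 with the slide as a block, 0.0161 with quantile normalization, 0.0454 with the strictest filter (above background on all 9 arrays), 0.0454 with trended and robust variances, and 0.0126 with the authors' log2 values. The cause was not tested. The replicate block changed no other member's call.

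The changes of sign concerned differences near 0. The Hcst change in Gata2 KD was 0.0142 with quantile normalization, 0.0276 with scaling to the median, and 0.16 without EV replicate 3 or without Gata2 KD replicate 3 (range when 1 array was left out -0.16 to 0.16). Hcst in Gata2 KD against Pu.1 KD was 0.0220 without Gata2 KD replicate 3 (range -0.26 to 0.02). The first Trem2 probe in Pu.1 KD was at -0.062 with the authors' log2 values and -0.0628 without EV replicate 2 (range -0.06 to 0.38). The other was at 0.04 and 0.18 without EV replicate 1 and 3 and at 0.02 without Pu.1 KD replicate 2 (range -0.41 to 0.18).

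Of the pathway counts, genes lower in Gata2 KD were 9 with the slide as a block and 8 with trended and robust variances or the authors' log2 values, against 5. Genes higher in Gata2 KD were 12 to 22 with 1 array left out, lowest without Gata2 KD replicate 2, against 20. Genes higher in Pu.1 KD were 0 with the replicate block or only the 2 groups compared, 5 with the slide as a block, normexp correction, quantile normalization or the authors' log2 values, 6 with the strictest filter or trended and robust variances, and 0 to 4 with 1 array left out, against 3. Genes lower in Pu.1 KD were 6 with the replicate block or scaling to the median, 17 with the authors' log2 values, 4 with only the 2 groups compared, and 5 to 11 with 1 array left out, against 11. Signal over background limits Trem3 in Pu.1 KD, and Trem2 in EV and Pu.1 KD.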
